A study of Mus musculus with 564 samples.

Results

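The 9 genes followed here, Atf4, Ddit3, Trib3, Chac1, Asns, Sesn2, Ddit4, Atf5 and Psat1, belong to the ATF4 branch of the integrated stress response. They were followed through H3K27ac, an acetylation of histone H3 that is carried by active promoters and enhancers, at cis-regulatory elements (CREs). The genes were chosen with earlier results of these data known. A CRE was taken as a member if its centre lay within 25 kb of an annotated transcription start of 1 of the 9 genes. Given the genes, this rule used position only and no measured value. It found 42 of the 59190 CREs in the table: 8 each for Sesn2 and Atf5, 5 each for Atf4 and Ddit3, 4 each for Trib3, Chac1 and Ddit4, 3 for Psat1 and 1 for Asns.

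In the integrated stress response, kinases that sense amino acid shortage, unfolded proteins, viral RNA or haem shortage phosphorylate the translation factor eIF2, which lowers protein synthesis in general and raises translation of the transcription factor ATF4. ATF4 then binds composite C/EBP-ATF response elements (CAREs) and drives genes of amino acid synthesis, transport and redox balance. DDIT3 (CHOP) and ATF5 are transcription factors of the same response, and TRIB3 is a pseudokinase that feeds back on it. CHAC1 degrades glutathione, ASNS makes asparagine, PSAT1 acts in serine synthesis, and SESN2 and DDIT4 (REDD1) restrain mTORC1, a kinase complex that is itself an input to ATF4.

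The 564 libraries came from wild-type mouse bone marrow-derived macrophages, from male C57/BL6 mice per the study's methods. All cells received either the solvent DMSO or 1 of 58 clinical kinase inhibitors (CKIs) for 1 h. They were then left untreated (UT) or stimulated with LPS or IL-4 at 10 ng/mL for 30 min, 1 h, 2 h or 4 h. For the UT libraries of the CKIs the labels give 4 h after the pre-treatment and the titles 0 h. The time of these cells in the inhibitor is therefore not settled. DMSO had 2 libraries in each of its 9 groups, 18 in all. The CKI libraries were mostly 1 per CKI and time, with 36 further libraries marked by a suffix b whose meaning the labels do not give. Each CKI was given at a concentration set for its own intended target, so concentrations differed between CKIs. The DMSO replicates are not said to come from separate mice, and the p-values below then measure the spread between these libraries, which may be technical.

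Values are the authors' normalised counts per CRE, rounded to whole numbers. They summed to 5923684 to 6873668 per DMSO library and 4066894 to 12391409 per CKI library. The strongest 10% of CREs stood above the weakest 10% by a ratio (of medians plus 1) that was 46.5 to 100.5 in the DMSO libraries and 3.32 to 57.7 in the CKI libraries. The library of PH797804 after 30 min of LPS stood apart, with 12451 CREs at 0, 11 members among them, and no value between 0 and 24. All 6 macrophage marker genes (Csf1r, Spi1, Cd68, Adgre1, Itgam and Lyz2) had a promoter CRE, at 143.7 to 370.4 per kb in UT DMSO cells, whereas 0 of 8 markers of other cell types had one.

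Each gene has a promoter CRE, which overlaps a RefSeq start of the gene, and the other 33 members lie outside these. Per kb of CRE, the UT DMSO level of the promoters was 218.2 for Atf4 (chr15:80254201-80256849), 156.6 for Ddit3 (chr10:127287183-127292096), 107.4 for Atf5 (chr7:44814900-44817083), 84.6 for Sesn2 (chr4:132508963-132511397), 84.0 for Ddit4 (chr10:59950956-59952889), 37.2 for Psat1 (chr19:15922728-15926651), 36.2 for Trib3 (chr2:152342878-152344880), 21.6 for Asns (chr6:7692219-7694071) and 15.4 for Chac1 (chr2:119350239-119351960), on mm10. The transcription factor genes therefore stood above the enzymes in untreated macrophages, and the Chac1 promoter was the lowest of the 9. Not every member need act on its member gene, since only 20 of 42 had it as their nearest gene and 3 held starts of at least 2 genes. The Ddit3 promoter CRE also holds the start of Mbd6, and the Atf5 promoter CRE those of Nup62 and Il4i1b. The CREs upstream of Atf5 lie in Nup62, Il4i1b, Il4i1 and Tbc1d17, and Il4i1 encodes a secreted amino acid oxidase. The CRE 17.9 kb downstream of the Ddit3 start is the promoter of Mars1, the methionyl-tRNA synthetase gene.

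Promoter sequences are shown for 4 genes on which the CKI results below turn, as RefSeq gives them for GRCm38.p6, from 250 bases before to 50 after the start, 5′ to 3′ on the gene's strand. They lie at chr2:119350992-119351291 (plus strand) for Chac1, chr6:7693160-7693459 (minus) for Asns, chr2:152344011-152344310 (minus) for Trib3 and chr10:59951721-59952020 (minus) for Ddit4. Capitals mark matches to the CARE letters TGATGNAA on either strand.

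Chac1: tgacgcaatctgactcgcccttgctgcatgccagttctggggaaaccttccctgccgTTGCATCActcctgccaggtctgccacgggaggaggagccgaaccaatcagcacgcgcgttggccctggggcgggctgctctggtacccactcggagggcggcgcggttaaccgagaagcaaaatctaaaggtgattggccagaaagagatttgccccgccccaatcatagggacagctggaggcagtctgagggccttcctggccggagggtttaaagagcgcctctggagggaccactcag

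Asns: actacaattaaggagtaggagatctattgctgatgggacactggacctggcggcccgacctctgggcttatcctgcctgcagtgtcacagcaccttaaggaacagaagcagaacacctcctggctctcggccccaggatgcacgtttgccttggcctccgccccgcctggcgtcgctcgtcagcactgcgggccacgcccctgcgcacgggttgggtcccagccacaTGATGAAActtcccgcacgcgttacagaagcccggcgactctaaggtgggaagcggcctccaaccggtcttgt

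Trib3: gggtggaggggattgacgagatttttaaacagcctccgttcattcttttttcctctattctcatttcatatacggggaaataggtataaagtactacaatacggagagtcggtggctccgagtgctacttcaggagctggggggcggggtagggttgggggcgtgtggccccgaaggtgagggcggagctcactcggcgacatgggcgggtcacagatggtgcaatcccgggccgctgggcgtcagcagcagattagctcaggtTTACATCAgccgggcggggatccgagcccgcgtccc

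Ddit4: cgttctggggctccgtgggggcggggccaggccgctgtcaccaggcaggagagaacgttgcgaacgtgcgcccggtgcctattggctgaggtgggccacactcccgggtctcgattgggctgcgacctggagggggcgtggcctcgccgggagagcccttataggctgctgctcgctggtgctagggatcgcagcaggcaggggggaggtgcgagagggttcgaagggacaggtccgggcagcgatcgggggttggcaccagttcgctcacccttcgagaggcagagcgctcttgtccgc

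The CARE letters begin 193 bases before the Chac1 start, 23 bases before the Asns start and 14 bases after the Trib3 start. They occurred in 3.97% of 32851 RefSeq promoter windows of this length, and among the 9 genes in the windows of Chac1, Asns and Trib3. The AP-1 letters TGANTCA, searched on both strands, occurred in 7.81% of windows and among the 9 genes in that of Ddit3. The cAMP response element letters TGACGTCA occurred in 1.79% of windows and in 0 of the 11 windows of the 9 genes. A match describes the letters and does not show binding.

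LPS was compared with UT in DMSO cells to ask which of these CREs the stimulus changed. The strongest gain was at a distal Ddit4 CRE, the strongest loss near Ddit3, and among the 9 promoters that of Psat1 passed the test. A call required an adjusted p under 0.01 (limma F-test over the 4 times, Benjamini-Hochberg over all CREs tested) and a log2 difference over 1 at 1 or more times, with log2 taken of the value plus 5. Of the 42 members, 38 had a mean of at least 10 and were tested; 10 rose and 9 fell. Over all CREs tested, 29% rose and 24.6% fell, so that the members' shares were near the background. The median of the largest log2 difference was 0.27 for members and 0.37 for all CREs. The 4 members that were not tested, 5.7 and 11.2 kb downstream of Atf4, 19.5 kb upstream of Trib3 and 21.7 kb upstream of Psat1, had DMSO means of 3.56 to 8.83.

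Around Ddit4, the promoter and the distal CREs went opposite ways. The CRE 8.17 kb downstream held 10 and 10 in the UT replicates and 117 and 166 after 30 min of LPS, then 67 and 58 at 1 h, 93 and 109 at 2 h and 60 and 53 at 4 h. All 8 LPS values lay above both UT values, and the log2 difference at 30 min was 3.27 ± 0.25 (SE, adjusted p = 5.85e-13, limma). The CREs 4.3 and 19.1 kb downstream also rose, by 1.43 ± 0.32 and 1.40 ± 0.31 on the log2 scale at 30 min. The Ddit4 promoter held 148 and 177 in UT and 94 and 66 at 1 h, a log2 difference of -0.99 ± 0.21 (adjusted p = 8.56e-04, limma) that was just short of the fold threshold. Its 8 LPS values, 66 to 112, all lay below both UT values.

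The Psat1 promoter moved in both directions within the time course. It held 154 and 138 in UT, 74 and 106 at 30 min, 185 and 212 at 1 h, 230 and 272 at 2 h and 309 and 356 at 4 h. The log2 difference was -0.69 ± 0.17 at 30 min and 1.16 ± 0.17 at 4 h (adjusted p = 1.29e-10, limma). The replicates of UT and 4 h did not overlap, nor did those of UT and 30 min.

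Of the other promoters, 5 passed the adjusted p but not the fold threshold. Atf4 held 575 and 581 in UT and 845 and 889 at 30 min, 0.58 ± 0.10 on the log2 scale (adjusted p = 1.54e-05, limma). Ddit3 held 793 and 746 in UT and 398 and 444 at 2 h, -0.86 ± 0.11, and was back at 724 and 665 by 4 h. Sesn2 and Atf5 had largest log2 differences of -0.77 ± 0.18 at 1 h and 0.61 ± 0.15 at 30 min, and Ddit4 is given above. The promoters with CARE letters did not pass: adjusted p was 0.0953 for Trib3 (largest log2 difference -0.72 ± 0.26), 0.841 for Chac1 (0.22 ± 0.32) and 0.0504 for Asns (0.50 ± 0.28). The plot of the promoter time courses gives every replicate.

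**Figure D1:**
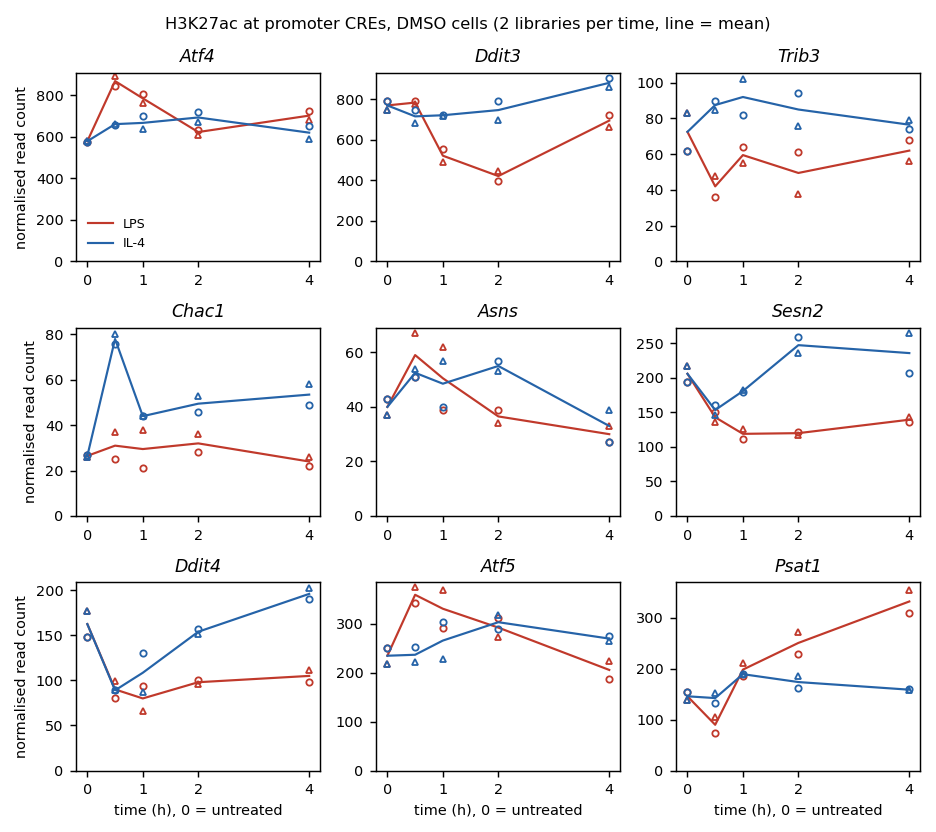
H3K27ac (normalised count) at the promoter CREs of the 9 genes in DMSO cells against hours after LPS or IL-4, with circles for replicate 1, triangles for replicate 2 and lines through the means of 2 libraries. Psat1 climbs to 309 and 356 after 4 h of LPS, Ddit3 dips to 398 and 444 at 2 h of LPS, and Chac1 reaches 76 and 80 after 30 min of IL-4.

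Near Sesn2, 7 of the 8 CREs fell and the promoter did not pass the fold threshold. The CRE 4.46 kb upstream held 258 and 297 in UT and 94 and 91 at 30 min, and stayed between 76 and 110 to 4 h (-1.75 ± 0.20 on the log2 scale at 2 h, adjusted p = 2.43e-09, limma). The CREs 15.7, 19.6 and 21.7 kb downstream, of which the first lies in a Sesn2 intron, had largest log2 differences of -1.71, -1.99 and -2.07. The CRE 5.09 kb downstream, also in a Sesn2 intron, fell by 1.23 at 30 min and was at 0.16 on the same scale at 4 h. Those 19.1 and 22.8 kb upstream fell by 1.84 and 1.37 at 30 min, the latter in an intron of Atpif1. Near Ddit3, the intergenic CRE 24.5 kb downstream, nearest to Arhgap9, held 151 and 102 in UT and 5 and 3 at 1 h (-3.85 ± 0.36, adjusted p = 2.41e-10, limma). The Mars1 promoter fell from 409 and 433 to 189 and 198 at 2 h (-1.10 ± 0.14).

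Upstream of Atf5, 6 CREs rose while the Atf5 promoter did not pass the fold threshold. The CRE 9.37 kb upstream held 77 and 82 in UT and 272 and 252, 623 and 640, and 695 and 730 at 0.5, 1 and 2 h, and its mean at 4 h was 481.5 ± 91.2 (SD, n = 2). Its log2 difference from UT was largest at 2 h, at 3.09 ± 0.14 (adjusted p = 3.03e-20, limma). The CRE 19.7 kb upstream, which holds the Il4i1 start, went from 158 and 133 to 845 and 842 at 2 h (5.66-fold on the scale of the value plus 5). The CREs 24.3, 15.6 and 5.22 kb upstream had largest log2 differences of 2.49, 2.26 and 1.98 at 2 h, and that 1.64 kb upstream 1.51 at 1 h. The CRE 22.7 kb downstream of Atf5 differed by -1.29 ± 0.35 at 4 h, with an adjusted p of 0.0171 that missed the threshold (limma). It was the furthest from 0 of the 11 members outside the promoters that were tested and not called, whose largest log2 differences reached 0.66 in the other direction, at the CRE 24.7 kb upstream of Ddit3.

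In the IL-4 comparison, Chac1 was the promoter that passed the test. It held 27 and 26 in UT, 76 and 80 at 30 min, 44 and 44 at 1 h, 46 and 53 at 2 h and 49 and 58 at 4 h. All 8 IL-4 values lay above both UT values, and the log2 difference at 30 min was 1.40 ± 0.24 (adjusted p = 1.03e-04, limma). Of 37 members tested, 7 rose and 4 fell, where 13.6% of all CREs rose and 11% fell; the CRE 6.51 kb downstream of Chac1 joined the 4 named above as not tested. The median of the largest log2 difference was 0.26 for members and 0.21 for all.

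The other 6 CREs that rose after IL-4 were those upstream of Atf5. Unlike after LPS they were highest at 4 h, where the CRE 9.37 kb upstream had a log2 difference of 3.03 ± 0.11 (adjusted p = 2.47e-27, limma) and the others 1.36 to 2.03. The 4 CREs that fell were those 21.7, 19.6 and 15.7 kb downstream of Sesn2 (largest log2 differences -1.86, -1.11 and -1.05) and that 24.5 kb downstream of Ddit3. The last held 151 and 102 in UT and 38 and 45 at 30 min (-1.48 ± 0.21) but 233 and 181 at 4 h. The Ddit4 promoter held 89 and 89 at 30 min against 148 and 177 in UT (-0.83 ± 0.17, adjusted p = 5.65e-07, limma, below the fold threshold) and 190 and 202 at 4 h. None of the 8 other promoters than Chac1 was called, with largest log2 differences of -0.83 to 0.42.

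**Figure D2:**
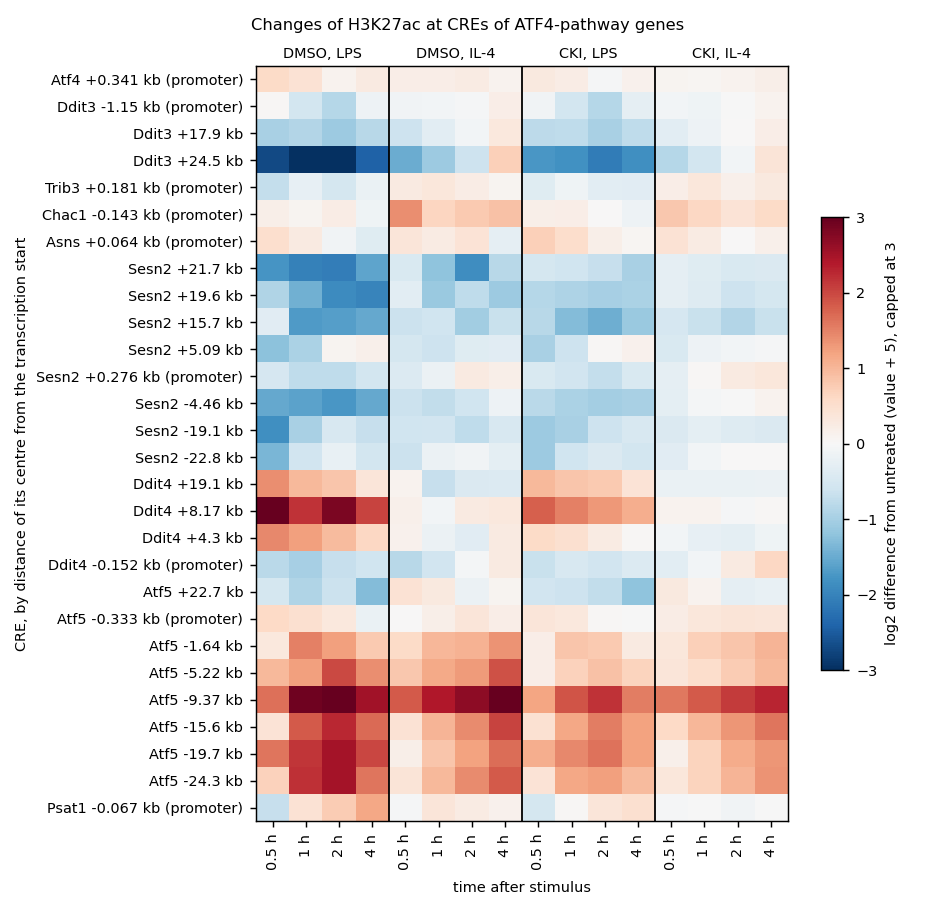
Mean log2 difference from UT at each time of LPS and IL-4, in DMSO cells and in CKI cells. Rows are the promoter CREs and the other members called in a DMSO or CKI time course, by gene with the offset from the start in kb. Members that were neither are not shown. The rows upstream of Atf5 gain under both stimuli, the rows downstream of Ddit4 gain under LPS, and most rows near Sesn2 lose under LPS.

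The stimuli were then set against each other at matched times. Of 38 members tested, 16 were called, 6 higher and 10 lower after LPS than after IL-4, against 58.4% of all CREs called. The difference was 3.12 ± 0.33 on the log2 scale at 30 min for the CRE 8.17 kb downstream of Ddit4 (adjusted p = 2.7e-15, limma) and -3.14 ± 0.30 at 4 h for that 24.5 kb downstream of Ddit3. Among promoters, Chac1 was lower after LPS at 30 min (25 and 37 against 76 and 80, -1.23 ± 0.29), Sesn2 lower at 2 h (122 and 118 against 259 and 236, -1.01 ± 0.16), and Psat1 higher at 4 h (1.04 ± 0.17). At the strongest CRE upstream of Atf5, that at 9.37 kb, no difference was called.

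The time courses were measured again in the CKI libraries, which share none with the DMSO comparisons. All 42 members were tested, and 6 rose and 7 fell, against 19.1% and 14.7% of all CREs. The median of the largest log2 difference was -0.04 for members and 0.37 for all CREs. Of the 20 members called in either DMSO time course, 12 were called here, all in the same direction. The member called here alone was that 22.7 kb downstream of Atf5, at -1.22 ± 0.10 after 4 h of LPS. Differences were mostly smaller than in DMSO: the CRE 8.17 kb downstream of Ddit4 differed by 1.80 ± 0.09 at 30 min of LPS and that 9.37 kb upstream of Atf5 by 2.29 ± 0.06 at 4 h of IL-4. The ratio of strong to weak CREs was also lower in the CKI libraries (median 16.79, against 62.75 in DMSO). Its part in the smaller differences was not tested.

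Most CKI cells moved as the DMSO cells did at these sites. Against its own UT library, the CRE 8.17 kb downstream of Ddit4 was higher at 30 min of LPS in 58 of 58 CKIs (median log2 difference 1.77). The Ddit3 and Sesn2 promoters were lower at 2 h of LPS in 55 of 55 CKIs, with medians of -0.80 and -0.74. The Psat1 promoter was higher at 4 h of LPS in 52 of 55 (median 0.47), and the 3 below included Afatinib, the lowest at -0.64. The Chac1 promoter was higher at 30 min of IL-4 in 54 of 58 (median 0.76); its difference over all CKIs, 0.80 ± 0.09, did not pass the fold threshold. Within 1 CKI and stimulus, the times share mostly 1 UT library.

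Next, each CKI was compared with DMSO, in UT cells and over the LPS and IL-4 times, with a call at an adjusted p under 0.05 within the CKI (limma, Benjamini-Hochberg) and a log2 difference over 0.5. Of 2436 pairs of a member and a CKI, 245 were higher and 25 lower in UT cells, 757 and 48 after LPS, and 750 and 7 after IL-4. Of the member pairs, 10.1% were higher and 1.03% lower in UT cells, 31.1% and 1.97% after LPS, and 30.8% and 0.287% after IL-4. Of all pairs, 10.3% were higher and 1.62% lower in UT cells, 32.3% and 4.04% after LPS, and 36.2% and 3.03% after IL-4. The higher shares of the members were thus near or below the background and the lower shares below it. With each library scaled to its total, the member pairs were 178 higher and 57 lower in UT, 692 and 84 after LPS and 620 and 72 after IL-4. In UT cells, leaving out either DMSO replicate lowered the 270 calls to 87 (replicate 2) or 126 (replicate 1), and leaving out the suffix b libraries to 48. The median log2 difference of a CRE over the CKIs was larger for weaker CREs, with a Spearman correlation with the CRE's level of -0.65 in UT, -0.91 after LPS and -0.87 after IL-4 over the 42 members, and of -0.77, -0.87 and -0.84 over all CREs (a description, since the points share libraries). The DMSO libraries differ from the CKI libraries in the ratio of strong to weak CREs given above, and with quantile normalisation the calls fell to 30, 91 and 130. The part of that ratio in the differences was not tested.

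The CKIs with most calls over the 42 members were Talmapimod (24), GDC0994 (18), Silmitasertib (16), Afatinib (15) and Losmapimod (14) in UT cells. They were also called at many CREs of the whole table, 55.8%, 39%, 39.4%, 41.7% and 42.3% in the same order, so that the counts say nothing particular to the members. In UT cells 43 CKIs had 1 library, Afatinib among them, and the spread in this fit came from DMSO and the 15 CKIs with 2 libraries. The weak promoters carried most of the promoter calls. Chac1 was called higher in 9, 38 and 29 of 58 CKIs in UT, LPS and IL-4, Asns in 4, 34 and 15, and Trib3 in 4, 24 and 13. Atf4, the strongest promoter, was called higher in 0 CKIs and lower in 2, 9 and 1, and Atf5 lower in 5, 13 and 4. Afatinib held the highest value of Chac1, Asns, Trib3 and Psat1 in UT cells, with log2 differences from DMSO of 1.95 ± 0.52, 1.31 ± 0.48, 1.27 ± 0.37 and 1.10 ± 0.23. It also held the lowest value of the Atf5 promoter there, -1.41 ± 0.28. The lowest Ddit4 promoter in UT cells was that of PF04691502, at -1.80 in 1 library. The same CKI was at -3.64 at the CRE 15.6 kb upstream of Atf5.

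To compare like with like, each CKI was set against the mean of the CKIs of its own run, a run being 1 of 6 stretches of consecutive columns that share no compound. Here 14 of 2436 pairs were higher and 9 lower, in 7 CKIs, against 0.792% and 0.265% of all pairs. PH797804 held 12 of the 23 calls, BGT226 5, Afatinib 2, and AMG208, AZD2014, Omipalisib and Lenvatinib 1 each. Of all CREs, 41.3% were called in PH797804, above its share of the members, 6.87% in BGT226, 4.91% in Omipalisib, 1.55% in AMG208, 0.789% in AZD2014, 0.559% in Afatinib and 0.446% in Lenvatinib. The other 51 CKIs had no call at these thresholds. The plot of the deviations gives all 58 CKIs at 4 promoters.

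**Figure D3:**
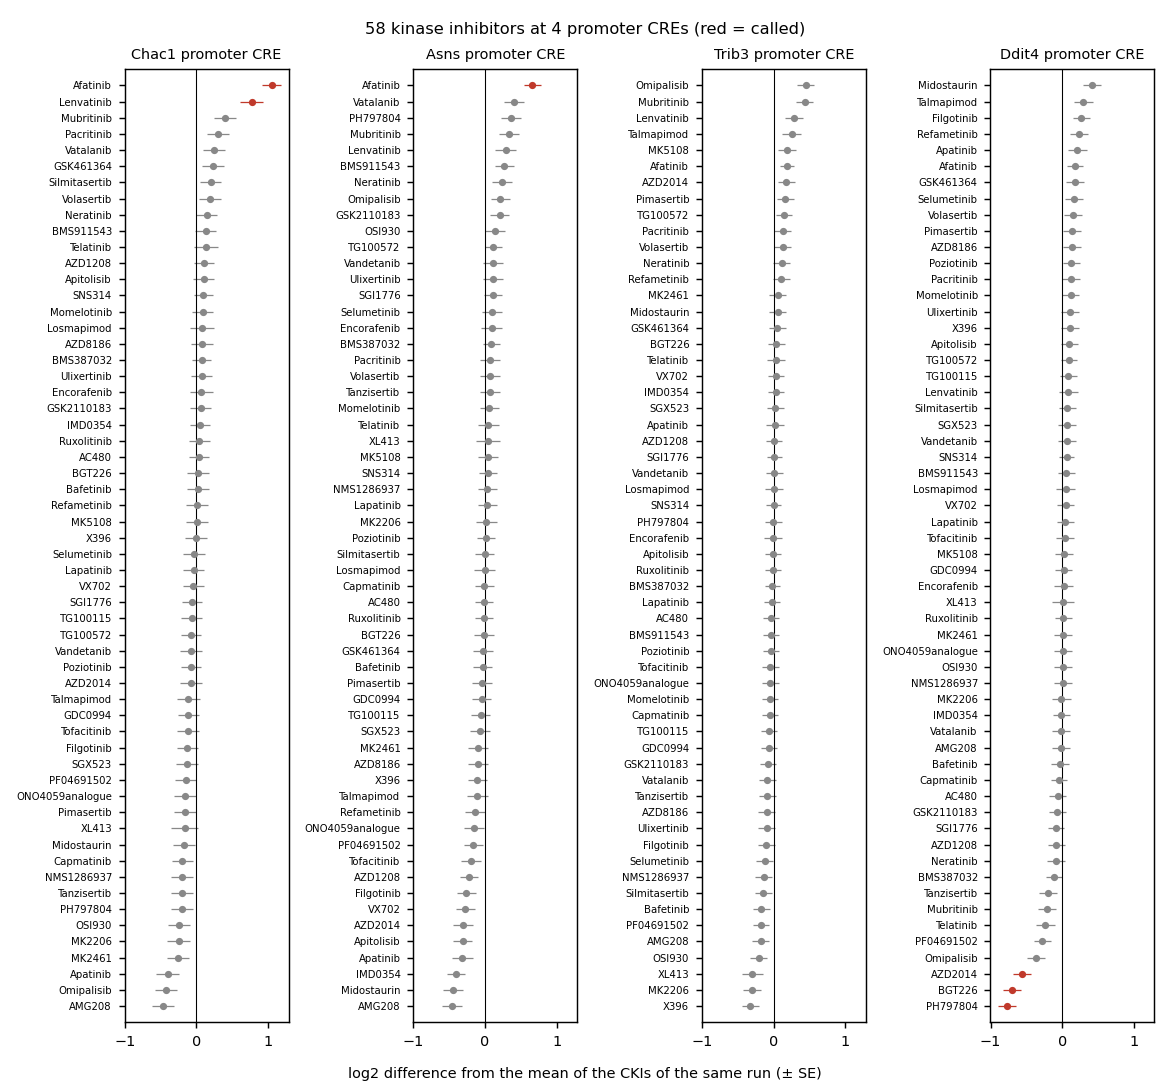
Log2 difference of each of the 58 CKIs from the mean of its run, with the standard error, at the Chac1, Asns, Trib3 and Ddit4 promoter CREs, each panel sorted by value and called CKIs in red. Afatinib lies at the top for Chac1 (1.05) and Asns (0.66), no CKI is called for Trib3, and PH797804, BGT226 and AZD2014 are the called CKIs at the bottom for Ddit4.

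Afatinib, an inhibitor of EGFR and ERBB2, had the highest Chac1 and Asns promoters in the comparison with the run over UT and both stimuli. After IL-4, Lenvatinib had the highest Chac1 promoter against DMSO. In the 13 Afatinib libraries the Chac1 promoter held 88 at the lowest, 139 at the median and 172 at the highest. The libraries of the other CKIs of the Afatinib run held 14 to 149. At matched times Afatinib lay above every other library of the run in 11 of 13 libraries and above their median in 13 of 13. In UT cells it held 117, against 16 to 94 in 11 other libraries and 27 and 26 in DMSO. The deviation was 1.05 ± 0.13 on the log2 scale (adjusted p = 4.73e-10, limma), or 2.07-fold. It was 1.28 in UT and LPS libraries alone, 0.69 in UT and IL-4 libraries alone and 0.97 without the suffix b libraries, and each of these was called.

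The Asns promoter held 63, 115 and 183 as its lowest, median and highest Afatinib value, against 16 to 168 in the others. It was above every other library of the run at that time in 6 of 13 libraries, all 6 after LPS, and above the median in 13 of 13. The deviation was 0.66 ± 0.12 (adjusted p = 9.8e-05, limma), and it was not called in UT and IL-4 libraries alone (0.54). The third promoter with CARE letters, Trib3, deviated by 0.19 ± 0.10 (adjusted p = 0.386, limma). The other 6 promoters deviated by 0.02 to 0.18 in Afatinib and none was called. Against its run, the Psat1 promoter in Afatinib was at 0.14 ± 0.09 and the Atf5 promoter at 0.02 ± 0.08, where the comparison with DMSO in UT cells had given 1.10 and -1.41. The ratio of strong to weak CREs in the Afatinib libraries was 6.17 to 28.1, and 5.13 to 26.1 in the 82 other libraries of the run.

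**Figure D4:**
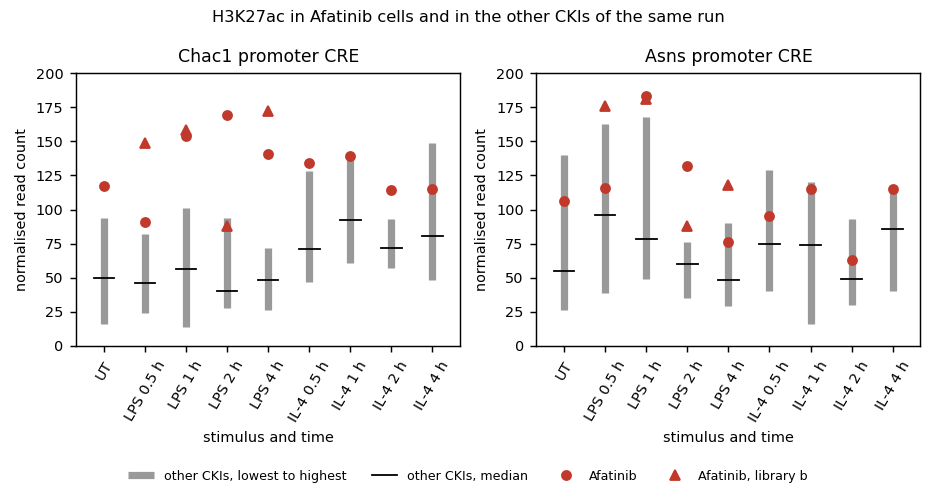
H3K27ac (normalised read count) at the Chac1 and Asns promoter CREs by stimulus and time, with red circles and triangles for the Afatinib libraries without and with the suffix b, grey bars from the lowest to the highest library of the other CKIs of the run and black lines at their median. The Afatinib points for Chac1, 88 to 172, lie above the grey bar in 11 of 13 libraries, and those for Asns, 63 to 183, in 6 of 13.

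Lenvatinib, an inhibitor of VEGF receptors that the study used to target RIPK2, was the other CKI with a called Chac1 promoter. Its 8 libraries held 82 in UT, 145, 61, 68 and 56 at the LPS times and 264, 185 and 190 at 30 min, 1 h and 2 h of IL-4. The 3 IL-4 values and the 30 min LPS value lay above every other library of the run at that time, and the UT value did not. The deviation was 0.77 ± 0.16 (adjusted p = 0.00986, limma), 1.02 with UT and IL-4 libraries alone and 0.50 without a call with UT and LPS alone. Mubritinib deviated by 0.44 ± 0.12 at Trib3, 0.40 ± 0.15 at Chac1 and 0.33 ± 0.14 at Asns, none of which passed (adjusted p = 0.0759, 0.314 and 0.391, limma). The highest Trib3 promoter was that of Omipalisib, 0.45 ± 0.11 (adjusted p = 0.006, limma), below the fold threshold.

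At the Ddit4 promoter 3 CKIs were called lower. BGT226 held 57 to 104 over its 9 libraries and lay below every other library of the run in 7 of them, for instance 89 against 203 to 310 at 4 h of IL-4 (-0.70 ± 0.13, adjusted p = 1.72e-06, limma). AZD2014 held 126 in UT against 148 to 208, and 51 at 2 h of IL-4 against 90 to 222, but 221 against 158 to 249 at 4 h (-0.56 ± 0.13, adjusted p = 0.00284, limma). PH797804 was at -0.77 ± 0.13, and at -0.38 with no call without its LPS 30 min library, where this CRE is at 0. BGT226 was also lower at the CREs 15.6, 19.7 and 24.3 kb upstream of Atf5 (-0.83 ± 0.12, -0.66 ± 0.09 and -0.58 ± 0.11) and at that 8.17 kb downstream of Ddit4 (-0.60 ± 0.15). At the CRE 15.6 kb upstream its 9 values, 36 to 116, were each the lowest of the run at their time.

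The remaining calls were in weak CREs or in PH797804, in which the median difference over all CREs was 0.30. Of the 12 calls of PH797804, an inhibitor of p38, 10 were higher and lay outside the promoters, at CREs with DMSO means of 3.56 to 46.8. The 2 lower calls were the Ddit4 promoter and that of Ddit3 (-0.54 ± 0.07). In the LPS 30 min library of PH797804 the Ddit3 promoter held 188, against 450 to 1084 in the other CKIs of the run. Without that library the calls of all CKIs went from 14 to 18 higher and from 9 to 7 lower. AMG208 was lower 6.51 kb downstream of Chac1 (-0.76 ± 0.19) and Omipalisib higher 22.7 kb downstream of Atf5 (0.51 ± 0.17). Without the libraries of PH797804, 11 calls were left.

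BGT226 and AZD2014 belong to the inhibitors of PI3K and mTOR, whose pathway SESN2 and DDIT4 restrain. The 5 CKIs taken as this class (with Omipalisib, PF04691502 and Apitolisib) were compared with the other 53. The class follows designated targets and not the targets that set the concentrations. Per the paper, Apitolisib, a PI3 kinase inhibitor, served in this study to target JAK1. Any further inhibitor of PI3K in the panel counted among the 53. The comparison took 1 profile per CKI and run as a factor, with a call at an adjusted p under 0.05 (limma). Of the 42 members 3 were lower, against 4.24% of all CREs called in either direction. They were the Ddit4 promoter (-0.42 ± 0.09, adjusted p = 0.00267) and the CREs 15.6 and 19.7 kb upstream of Atf5 (-0.30 ± 0.08 and -0.28 ± 0.08). The Ddit4 profile was -0.71 in BGT226, -0.57 in AZD2014, -0.37 in Omipalisib, -0.27 in PF04691502 and 0.10 in Apitolisib. Leaving BGT226 out of the class left 0 members called and -0.32 at the Ddit4 promoter; leaving out Omipalisib left 1 called. Sesn2 (-0.12 ± 0.06) and Atf4 (-0.08 ± 0.05) did not pass.

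The 6 inhibitors of EGFR and ERBB2 (AC480, Afatinib, Lapatinib, Mubritinib, Neratinib and Poziotinib) had 0 of 42 members called against the other 52 CKIs by limma, and 2 at an unadjusted p under 0.05. Of all CREs 0% were called, with 1842 of 59167 at an unadjusted p under 0.05. The class differences were 0.29 ± 0.11 for Chac1 and 0.25 ± 0.09 for Asns (adjusted p = 0.999 for each). At the Chac1 promoter the profiles ran from 0.99 in Afatinib and 0.40 in Mubritinib to 0.14 in Neratinib, 0.03 in AC480, -0.04 in Lapatinib and -0.08 in Poziotinib. These CKIs were given at different concentrations and in different runs, and pairs of them were not tested.

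Other genes of the pathway were taken from 4 lists, which were also chosen with earlier results of these data known. In Afatinib, the promoters of all 13 genes of the aminoacyl-tRNA synthetase list, whose enzymes charge tRNAs with amino acids (the list also holds Xpot, a tRNA export receptor), deviated upward from the run (median 0.24, against -0.01 over all CREs), and 2 of 13 were called: Cars (0.56 ± 0.08) and Aars (0.50 ± 0.08). Of 16 amino acid synthesis and transport promoters, 14 were above 0 (median 0.16) and 1 was called, Pck2, mitochondrial phosphoenolpyruvate carboxykinase (0.51 ± 0.10). None of the 12 unfolded protein response promoters was called in Afatinib by limma (9 above 0, median 0.07). Nor was any of the 6 promoters of eIF2 kinases and phosphatase subunits (4 above 0, median 0.04). Of 11718 promoter CREs tested, 11 were higher in Afatinib and 10 lower. The median of -0.01 covers all CREs, and that of promoter CREs alone is not given.

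**Figure D5:**
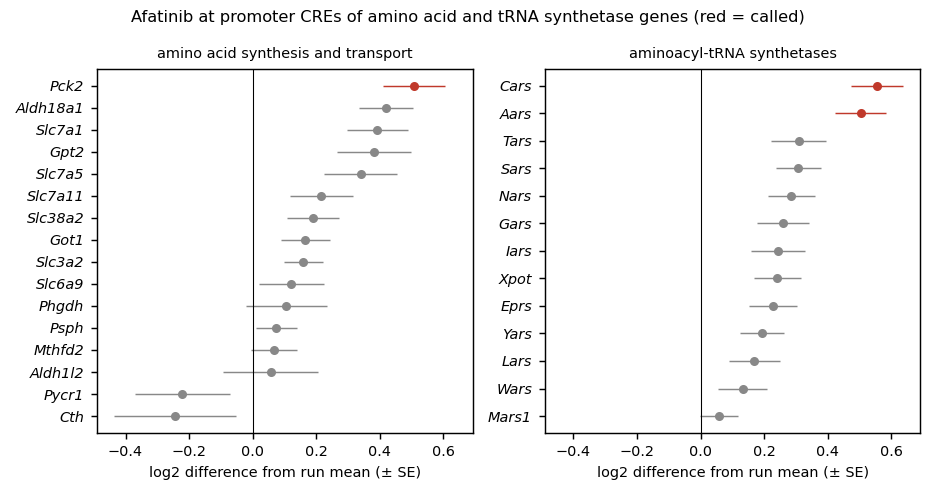
Log2 difference of Afatinib from the mean of its run, with the standard error, at the promoter CREs of the amino acid synthesis and transport list (left) and the aminoacyl-tRNA synthetase list (right), called promoters in red. Pck2 (0.51), Cars (0.56) and Aars (0.50) are called, and all 13 promoters on the right lie above 0.

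In DMSO cells the promoters of the same lists were compared with UT, where 29% of all CREs rose and 24.6% fell after LPS and 13.6% and 11% after IL-4. After LPS, 3 of 6 promoters of the eIF2 list rose and 0 fell: Ppp1r15b and Ppp1r15a, phosphatase subunits that reverse eIF2 phosphorylation (1.74 and 1.36), and Eif2ak2, the double-stranded RNA-activated kinase (1.70). Of 15 amino acid promoters 3 rose, among them Slc7a11 (2.03) and Phgdh (1.32), and 2 fell, Got1 (-1.40) and Pck2 (-1.40). Of the 13 tRNA synthetase list genes 2 rose, Wars (1.85) and Eprs (1.16), and 1 fell, Mars1. Of 12 unfolded protein response promoters 1 fell, Pdia4. After IL-4, Pdia4 (1.59) and Sdf2l1 (1.30), both of the endoplasmic reticulum, and the glycine transporter gene Slc6a9 (1.86) rose and none of the 4 lists' members fell. Of the 6 macrophage marker promoters, 4 fell after LPS (Csf1r, Cd68, Itgam and Lyz2), and Itgam also after IL-4 (-1.80).

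In the PI3K and mTOR class, 5 of 12 unfolded protein response promoters were lower and 0 higher, where 3.34% of all CREs were lower and 0.896% higher. They included Hspa5, Hsp90b1 and Pdia4, which encode chaperones and a disulfide isomerase of the endoplasmic reticulum (-0.30, -0.28 and -0.25), with Sdf2l1 (-0.21) and 1 more. Eif2ak3 (PERK) was lower by a log2 difference of -0.25, and 3 of 13 genes of the aminoacyl-tRNA synthetase list were lower. None of the 16 amino acid promoters was called in the class by limma. These counts depended on single compounds. Without BGT226 the unfolded protein response list had 1 promoter lower, the eIF2 and tRNA synthetase lists 0, and 0.617% of all CREs were called. In that order the 3 lists had 2, 0 and 1 lower without Omipalisib and 3, 0 and 2 without AZD2014. They had 5, 0 and 3 lower without PF04691502 and 6, 1 and 3 without Apitolisib. Of all CREs 1.48%, 4.79%, 4.97% and 5.93% were called without these 4 CKIs, in the same order.

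Patterns over the CKI libraries were compared by Pearson's r over all CKI libraries after centring each run and time, as a description, since libraries of 1 CKI share treatment and depth. The promoters most like Chac1 were a CRE at a start of Mthfd2 (r = 0.40, and 0.35 without Afatinib), which encodes a mitochondrial folate enzyme, Asns (0.35 and 0.31) and Cracr2a (0.34 and 0.37), where the median over 11717 promoter CREs was 0.05. The promoter most like Trib3 was Chac1 (0.31). The promoters of Atf4 and Ddit3 were most like other strong promoters, Brd2 with H2-DMa (0.68) and Atp6v0c (0.71), with medians over all promoters of 0.20 and 0.17. Among the members, the Atf4 promoter was at r = 0.50 with Ddit3 and 0.01 with Chac1.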

How the data were processed

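The deposited table holds 1 value per CRE and library, used here as a score: read counts that the authors normalised on invariant peaks and rounded to whole numbers. Per the study's methods, reads were trimmed and mapped to mm10, and counted around accessible sites. Values were analysed as log2(value + 5) with limma 3.58.1 in R 4.3.3, without a count model, on CREs with a mean of at least 10. Groups came from the sample titles. The named genes are all 9 member genes, each by its promoter CRE (the highest DMSO mean where several overlap a start). Other members were named where a DMSO time course called them, CKIs where they had the 5 most or fewest calls or the extreme of a promoter, and list genes by the largest differences. Further names are those of all calls within runs, given after their values were seen, and the EGFR and ERBB2 and PI3K and mTOR compounds. The members and lists were chosen with earlier results of these data known. The fit of the LPS time course in DMSO cells, that within runs and that of a class (made of 1 CKI) were tested on data with known answers. The other fits were not. Depth beyond the table is unknown, so no counting intervals are given.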

Additional observations from a re-analysis of the deposited data

Results flagged for a closer look

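Between LPS and IL-4 in DMSO cells, 16 of 38 members tested differed by the test of the difference itself (limma, adjusted p under 0.01 and log2 over 1), where 58.4% of all CREs did. At their largest, the log2 differences of LPS minus IL-4 near Ddit4 were 3.12 at the CRE 8.17 kb downstream (30 min), 1.67 at 19.1 kb and 1.41 at 4.3 kb downstream (1 h). Near Ddit3 they were -3.14 at 24.5 kb and -1.14 at 17.9 kb downstream (4 h). Near Sesn2 they were -1.31 at 21.7 kb downstream (30 min), -1.13 at 19.6 kb (2 h), -1.11 at 15.7 kb (1 h), -1.01 at the promoter (2 h), -1.38 at 4.46 kb upstream (4 h) and -1.24 at 19.1 kb upstream (30 min). The Chac1 promoter was at -1.23 (30 min) and the Psat1 promoter at 1.04 (4 h). Near Atf5 the values were -1.38 at 22.7 kb downstream (4 h), 1.44 at 19.7 kb upstream (30 min) and 1.22 at 24.3 kb upstream (1 h).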

How the results depend on the processing

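The counts after LPS and after IL-4, 19 and 11, were 18 to 19 and 10 to 10 without either UT replicate. The count between the stimuli stayed at 16, but its log2 differences use no UT library and could not change, so this does not show robustness. No stimulated replicate was left out of these comparisons. Replicate numbers did not pair the DMSO samples (correlations of deviations -0.09 to 0.07), and with the replicate as a block the counts were 19, 11 and 16. With a log2 threshold of 0.5, IL-4 gave 18, the difference 28 and the CKI time courses 27 (13 as reported); with a pseudocount of 20 the latter 2 gave 8 and 8. Counting, in the same fits, only the 20 of 42 members nearest to their own gene left fewer CREs that could be called. LPS then gave 9, IL-4 4, the CKI time courses 5 and the CKI comparisons with DMSO 145, 480 and 485 (UT, LPS, IL-4). Quantile normalisation turned the latter, 270, 805 and 757, into 30 (11 higher), 91 (70 higher) and 130 (112 higher), and the mean of all compounds as reference into 37, 59 and 66. Total scaling gave 178 higher and 57 lower in UT, 692 and 84 after LPS and 620 and 72 after IL-4. The median over all CREs shifted from 0.41 to 0.007 in UT under quantile normalisation. Leaving out a DMSO replicate gave 87 to 126, 576 to 648 and 604 to 676, and leaving out suffix b libraries 48 in UT. Within runs, 23 calls became 11 without PH797804 (added after seeing the data), and its value 8.51 kb downstream of Trib3 turned to -0.071 under quantile normalisation. The PI3K and mTOR class had 1 member called with total scaling and 0 to 3 with 1 compound left out, and the EGFR and ERBB2 class 0 to 0. Apart from the smaller number of members counted in that restriction, the cause of these shifts was not tested. Of the other values, 872 kept their call and direction, 81 lost and 16 gained a call. With 1 library for most CKIs and times, single libraries limit the CKI results.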

Other observations

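Across 11718 promoter CREs tested, Afatinib was higher than its run at CREs of 11 genes: Aars, Adgrl1, Asns, Cars, Chac1, Mthfd2, Pck2, Plk3, Rps6ka2, Spred2 and Sqle. Mthfd2 was called at the CRE most like Chac1 and not at the stronger Mthfd2 promoter CRE of the amino acid list. The CARE letters TGATGNAA were in the RefSeq windows of 4 of the 9 such genes that have one (44.4%), in 0 of 7 genes whose promoter was lower in Afatinib and in 2.83% of the 9648 genes with a promoter CRE tested. The 4 include the members Chac1 and Asns, whose letters and calls are given above. These shares describe genes chosen by their values, and no test was made of them.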
